A study of Mus musculus with 4 samples.

Results

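Fas and the death receptors around it were followed through 10 genes: the ligands Fasl and Tnfsf10, the receptors Fas, Tnfrsf10b, Tnfrsf1a, Tnfrsf1b and Eda2r, the adaptor Fadd, the caspase Casp8 and its inhibitor Cflar. They were taken by gene name from the array annotation, which gave 15 probes out of 55675 with a value on every array, or 10 of 21972 named genes. The genes were chosen by their log2 processed signal, set relative to the 75th percentile of each array, with Fas already known to stand out on 1 array. The differences between genotypes are therefore a description and carry no test of that choice. At least 1 probe was well above background on all 4 arrays for 8 of the 10 genes and on at least 1 array for 9, and Eda2r was well above it on none. Of the 15 probes, 12 were well above background on all 4 arrays.

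The RNA came from bone marrow LSK cells, which lack lineage markers, carry Sca-1 and cKit, and hold the stem cells and multipotent progenitors of blood. Gene expression was measured on 4 Agilent 1-colour arrays, 1 for each genotype. The Aspp1-/-p53-/- array held RNA of Mx1-Cre(+)Aspp1-/-p53flox/flox mice, the p53-/- array RNA of Mx1-Cre(+)p53flox/flox mice, the Aspp1-/- array RNA of Aspp1-/- mice, and the WT array RNA of wild-type mice. All were male C57BL/6 mice that received pIpC 5 times from 8 weeks of age, and their marrow was collected after a further 4 weeks, at 12 weeks of age. The sample labels give doses of 403 μg for Aspp1-/-p53-/-, 402 μg for p53-/-, 401 μg for Aspp1-/- and 400 μg for WT, whereas the series design gives 400 μg for all. pIpC is a double-stranded RNA analogue that evokes interferon, and interferon switches on the Mx1 promoter and with it Cre, which cuts the floxed p53 gene in every responding cell and not in LSK cells alone. Mx1-Cre is named for Aspp1-/-p53-/- and p53-/- mice and not for Aspp1-/- and WT mice. RNA of 3 mice was pooled for each array, and no spread between mice or arrays can be had.

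Death receptors are cell surface proteins of the TNF receptor family with a death domain on their inner side. When Fas ligand or TRAIL binds, the domain recruits the adaptor FADD, which gathers caspase-8, and caspase-8 then starts the proteolysis that kills the cell. FLIP, the product of Cflar, joins the same complex and limits the activation of caspase-8, while TNF receptor 1 reaches that complex only through further adaptors and otherwise signals through NF-kB. In blood progenitors, Fas is usually scarce and can be raised by inflammatory cytokines, and Fas, Tnfrsf10b and Eda2r are known as genes that p53 can activate.

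The array probes that carry these measurements are 60 bases long, and the first 30 bases of 5 of them are printed here because the results turn on which sequence, and which copy of it, was read. Positions are those of the file annotation on mm9 and cover the printed bases.
Fas, chr19:34402164-34402193, plus strand: gaagaccttccattgatggacagttctttt
Fasl, chr1:163711086-163711115, minus strand: gcaatgatgtctgtgtgtttgtatgtatga
Tnfrsf10b, chr14:70184141-70184170, plus strand: gatgtccttttctagtgtgtttgaagccag
Cflar, chr1:58789994-58790023, plus strand: ctttcttgctgatgtataaattgcctcctt
Cflar, chr1:58810660-58810689, plus strand: tcatggacaaagtgtatgcgtggaacagtg
The Fas probe starts at base 1389 of transcript NM_007987, the Fasl probe at base 1641 of NM_010177 and the Tnfrsf10b probe at base 3101 of NM_020275. The Cflar probes shown start at base 1940 of NM_009805 and base 1844 of NM_207653, which are different transcripts of the gene. Whether a probe lies in coding sequence or in an untranslated region was not analysed here.

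Each array held 62976 spots, 59305 of them for genes, and between 51.2% and 54.1% of the gene spots were well above background. Between spots of the same probe on 1 array the median standard deviation was 0.0532 to 0.0544 on the log2 scale, which is technical. With 1 array per genotype, no value has more precision than that number allows. Ppp1r13b, the gene of Aspp1, had a processed signal of 2060 in Aspp1-/-p53-/- and 2247 in Aspp1-/- cells, against 12759 in p53-/- and 13182 in WT cells. Trp53, the gene of p53, had 169 in Aspp1-/-p53-/- and 164 in p53-/- cells, against 820 in Aspp1-/- and 730 in WT cells, so both targeted genes followed the labels. All 10 LSK markers, among them Kit and Ly6a, were well above background on every array. The 4 arrays lay on 1 slide, with Aspp1-/-p53-/- and p53-/- in row 2 and Aspp1-/- and WT in row 1, so slide row, Cre and the loss of p53 cannot be told apart.

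A log2 difference of at least 1 in size, or 2-fold, was used as a rule of size, since 2 arrays leave no residual degree of freedom for a test. In Aspp1-/-p53-/- against WT cells, 0 of the 9 measured members passed it in either direction, where 5.94% of all genes did, 3.51% higher and 2.43% lower. Fas stood just under it, at 0.998 from the mean of its 2 spots, but at 2.26 from spot 1 and −0.26 from spot 2. In p53-/- against WT cells 0 of 9 passed, where 5.13% of all genes did, 3.61% higher and 1.52% lower. In Aspp1-/- against WT cells 0 of 9 passed, where 3.48% of all genes did, 1.32% higher and 2.16% lower. Fas was higher by the rule in Aspp1-/-p53-/- against p53-/- cells, as 1 of 8 members, where 5.78% of all genes passed, 2.49% higher and 3.29% lower. It was also higher in Aspp1-/-p53-/- against Aspp1-/- cells, again as 1 of 8, where 5.63% of all genes passed, 3.69% higher and 1.94% lower. At 1.5-fold, Fas was higher and Tnfrsf10b lower in Aspp1-/-p53-/- against WT cells, beside 12.0% of all genes past that size in either direction. Tnfrsf10b was also lower in p53-/- against WT cells, beside 8.94%, and Fasl in Aspp1-/- against WT cells, beside 6.78%. The Fasl value is a bound from a dim probe, −0.83 or less with a scanner error of 0.47. The lowest signal well above background, which limits such bounds, was 13.2 in Aspp1-/-, 23.6 in Aspp1-/-p53-/- and 24.2 in p53-/- cells. The contrasts between genotypes chose the members, so nothing is read from the shares. The median difference of the members was −0.02 in Aspp1-/-p53-/- against WT, 0.05 in p53-/- against WT and 0.00 in Aspp1-/- against WT, beside all-gene medians of 0.01, 0.01 and 0.00 in the same order.

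**Figure D1:**
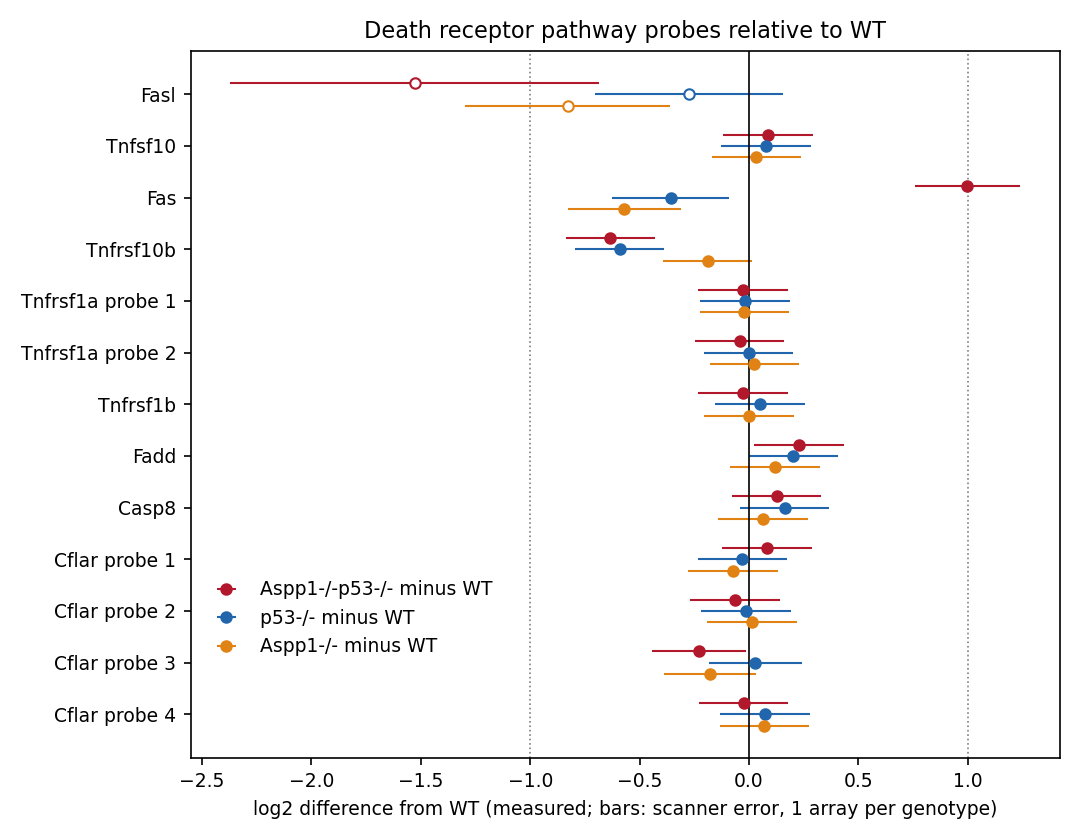
Log2 difference from WT (x axis) of each member probe well above background on at least 1 array (rows, by role), for Aspp1-/-p53-/-, p53-/- and Aspp1-/- cells; points are measured differences, open where the genotype's array was not well above background, bars are the scanner's error, and dotted lines mark 2-fold. Fas in Aspp1-/-p53-/- cells stood at 0.998 and Tnfrsf10b at −0.63, while the filled points of Tnfsf10, both TNF receptors, Fadd, Casp8 and Cflar lay between −0.23 and 0.23.

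The 2 ligands differed in whether they could be measured. Fasl, which encodes Fas ligand and is best known from activated T cells and natural killer cells, had a processed signal of 8.96 in Aspp1-/-p53-/-, 23.1 in p53-/- and 16.2 in Aspp1-/- cells, against 27.5 in WT cells. It was well above background on the WT array alone, so the other values give bounds: a log2 difference of −0.18 or less in Aspp1-/-p53-/-, −0.26 or less in p53-/- and −0.83 or less in Aspp1-/- against WT. The scanner error of these 3 measured differences was 0.84 in Aspp1-/-p53-/-, 0.43 in p53-/- and 0.47 in Aspp1-/- cells. None of the bounds reached 2-fold, and the fainter arrays have no order among themselves. Of 9 T cell markers, Cd3g, Cd3d, Cd8a and Trac were not well above background on any array, and the other 5, Cd3e, Cd4, Cd5, Lck and Cd28, were on every array. Of 10 natural killer cell markers, Ncr1, Klre1, Eomes and Tbx21 were not well above background on any array, and the other 6, Klrb1c, Klrd1, Nkg7, Gzma, Gzmb and Prf1, were on every array. Tnfsf10, the gene of TRAIL, had a signal of 2274 in Aspp1-/-p53-/-, 2443 in p53-/-, 2445 in Aspp1-/- and 2277 in WT cells. After scaling it spanned 0.09 over the 4 arrays on the log2 scale, less than the scanner error of 0.20 for 1 difference.

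Fas, the receptor of Fas ligand, had a range of 1.57 over the arrays on the log2 scale from the mean of its 2 spots, but of 0.60 from spot 2 alone, beside 0.63 for Tnfrsf10b. Its probe gave a mean signal of 175 in Aspp1-/-p53-/-, 54.0 in p53-/- and 47.7 in Aspp1-/- cells, against 67.4 in WT cells. On the scaled log2 levels the order was Aspp1-/-p53-/- at −2.08, WT at −3.08, p53-/- at −3.44 and Aspp1-/- at −3.65. The p53-/- and Aspp1-/- levels, neighbours in that order, lay closer together than the scanner error of either difference from WT. Aspp1-/-p53-/- cells were higher than WT cells by 0.998 with a scanner error of 0.24, just under the rule, higher than p53-/- cells by 1.36 with an error of 0.27, and higher than Aspp1-/- cells by 1.57 with an error of 0.26. These levels are means of the 2 spots on the log2 scale, whereas the signals above are plain means. With the signals averaged before the logarithm, an alternative chosen after seeing the data, the 3 differences were 1.47, 1.81 and 2.03 in the same order, and the first of them passed the rule. Against WT, p53-/- cells stood at −0.36 and Aspp1-/- cells at −0.57. A set of 2076 genes, Fas included, had a mean signal within 0.5 of that of Fas on the log2 scale. Of these, 2.75% were at least as high as Fas in Aspp1-/-p53-/- against WT, 1.16% in Aspp1-/-p53-/- against p53-/- and 0.963% in Aspp1-/-p53-/- against Aspp1-/-. The shares use the mean of both spots, and Fas was chosen with these values known, so nothing is read from them. With bulk RNA, a change in the number of cells that hold Fas RNA and a change in the RNA per cell cannot be told apart.

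The high Fas value rested on 1 of the 2 spots that carry the probe. Spot 1, in row 8 and column 114 of the array, had a signal of 296 in Aspp1-/-p53-/-, 61.9 in p53-/-, 45.4 in Aspp1-/- and 65.9 in WT cells. Spot 2, in row 235 and column 52, had 54.1 in Aspp1-/-p53-/-, 46.1 in p53-/-, 50.01 in Aspp1-/- and 68.9 in WT cells. Spot 1 was thus highest on the Aspp1-/-p53-/- array, whereas spot 2 was highest on the WT array. The 2 spots hold the same sequence, and on the Aspp1-/-p53-/- array they lay 2.45 apart on the log2 scale, or 5.47-fold, against 0.43 on the p53-/-, 0.14 on the Aspp1-/- and 0.06 on the WT array. Among the 281 probes with at least 2 spots well above background on the Aspp1-/-p53-/- array the median range was 0.17, and 0 of the others had a range as wide as Fas. These probes differ in signal and in number of spots. Of them, 22 had 2 such spots, with a median range of 0.09. Only 4, Fas included, also lay within 1 of its log2 level, with a median of 0.12, so the matched reference is small. Fas alone was as wide in both sets.

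**Figure D2:**
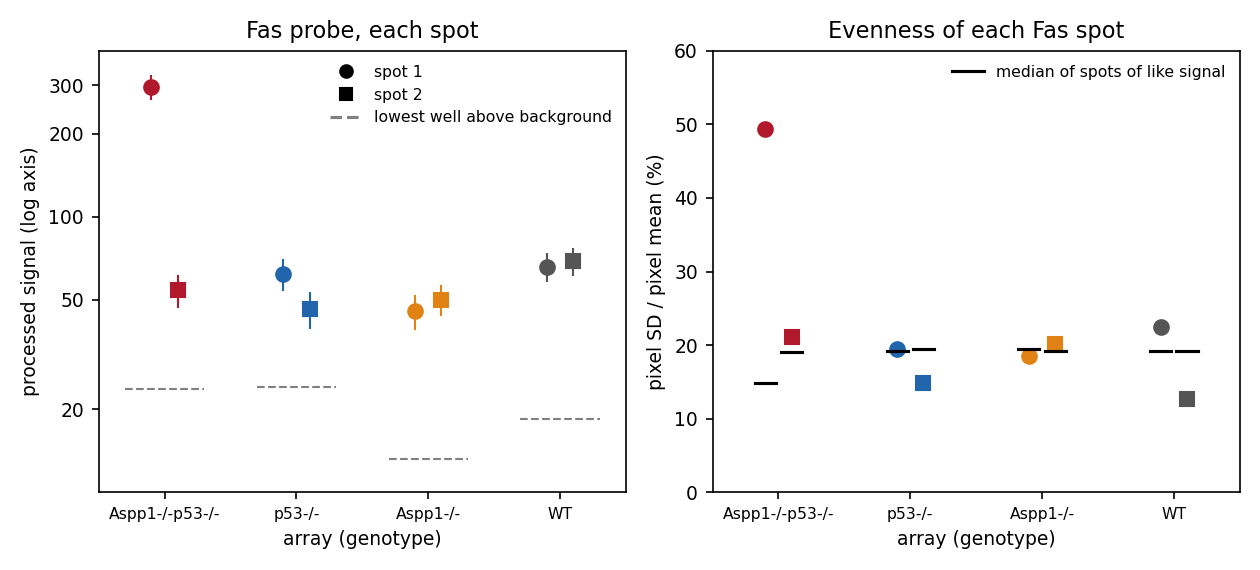
Left, processed signal (log axis) of both Fas spots on each array, with the scanner's error as bars and the lowest signal well above background as dashed lines; right, the standard deviation over a spot's pixels as a percentage of their mean, with a black line for the median of spots of like signal on that array. Spot 1 on the Aspp1-/-p53-/- array stood apart in both panels, at a signal of 296 and an unevenness of 49.4%.

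Read from spot 1 alone, Fas in Aspp1-/-p53-/- cells was 2.26 above WT (scanner error 0.22), 2.37 above p53-/- (error 0.24) and 2.86 above Aspp1-/- cells (error 0.25). Read from spot 2 alone, the same differences were −0.26 (error 0.26), 0.34 (error 0.30) and 0.27 (error 0.27), and none passed the rule. The sign of the difference from WT thus depended on the spot. In p53-/- against WT cells spot 1 gave −0.11 (error 0.26), which is within its error, and spot 2 gave −0.60 (error 0.28). In Aspp1-/- against WT cells the spots gave −0.61 (error 0.27) and −0.53 (error 0.25), both below WT by more than their errors. The smaller Aspp1-/- difference was thus repeated by the spots, and the Aspp1-/-p53-/- difference was not.

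**Figure D3:**
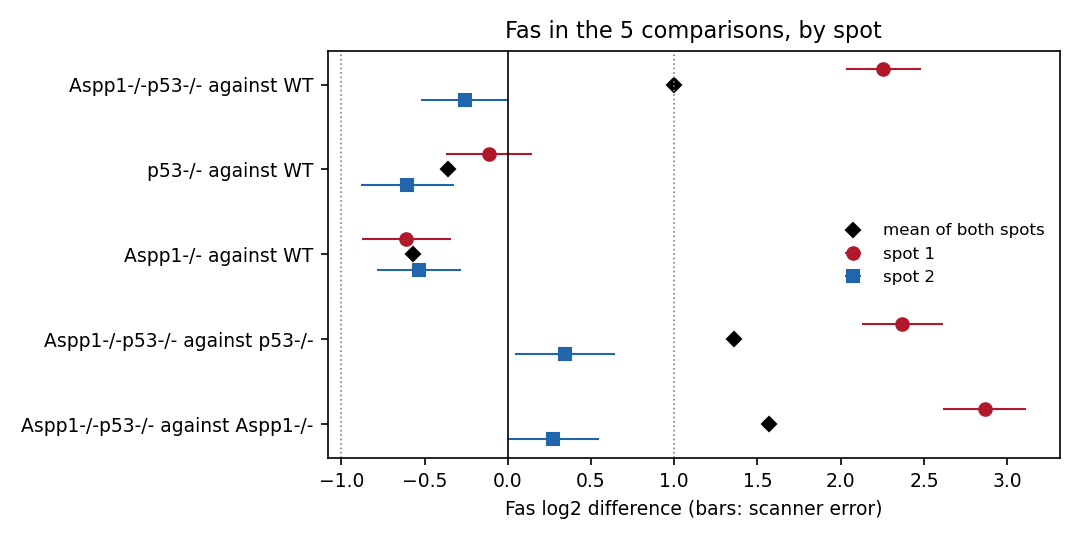
Log2 difference of Fas (x axis) in each of the 5 comparisons (rows) from the mean of both spots (diamonds), from spot 1 (circles) and from spot 2 (squares), with scanner error bars on the single spots; dotted lines mark 2-fold. The spots lie apart by over 2 in all 3 comparisons that contain Aspp1-/-p53-/- cells and within 0.5 of each other in p53-/- and Aspp1-/- against WT.

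The pixels of Fas spot 1 were uneven on the Aspp1-/-p53-/- array. Their standard deviation was 49.4% of their mean, against a median of 14.9% among spots of like signal on that array, of which 60 of 8131 (0.738%) were as uneven. The other 7 Fas spots ranged from 12.7% to 22.5%, and no spot of another member exceeded 24.1% on the same array. The scanner software set no outlier flag on Fas spot 1. In the 80 spots within 4 rows and 4 columns of it, a window chosen after the values were seen, unevenness of 30% or more was found in 16 (20%) on the Aspp1-/-p53-/- array, 26 (32.5%) on the p53-/- array, 3 (3.75%) on the Aspp1-/- array and 0 on the WT array. Over the whole arrays the shares were 4.05% for Aspp1-/-p53-/-, 3.64% for p53-/-, 2.47% for Aspp1-/- and 2.28% for WT. Around Fas spot 2 the counts were 5 on the Aspp1-/-p53-/-, 0 on the p53-/-, 3 on the Aspp1-/- and 2 on the WT array, of 80 spots each.

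Bright spots in that window were counted on the 2 arrays with the most uneven ones. Spots at least 2-fold above the mean log2 level of the same spot on the other arrays numbered 11 of 80 (13.75%) on the Aspp1-/-p53-/- array and 38 of 80 (47.5%) on the p53-/- array, and 0 on the Aspp1-/- and WT arrays, against 4.29%, 4.55%, 2.24% and 2.76% of all spots on these arrays in that order. That mean takes in the bright spots of the p53-/- or Aspp1-/-p53-/- array, or both, which lowers the count of the array compared. The counts of 0 on the Aspp1-/- and WT arrays are therefore no independent reading. Fas spot 1 itself was even on the p53-/- array, at 19.4%. A copy of the spike-in control (+)E1A_r60_3, spotted 1 row and 1 column away from Fas spot 1, had a signal of 121 on the Aspp1-/-p53-/- array, where its 34 other copies had a median of 5.56 and a highest value of 26.4, and the software flagged it as an outlier. The same copy had 5.53 on the p53-/-, 4.54 on the Aspp1-/- and 4.12 on the WT array. Single bright copies also occurred elsewhere, as 1 of the 34 others reached 289 on the WT array. The part of this uneven area in the Fas value was not tested beyond the reading of spot 2 alone.

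**Figure D4:**
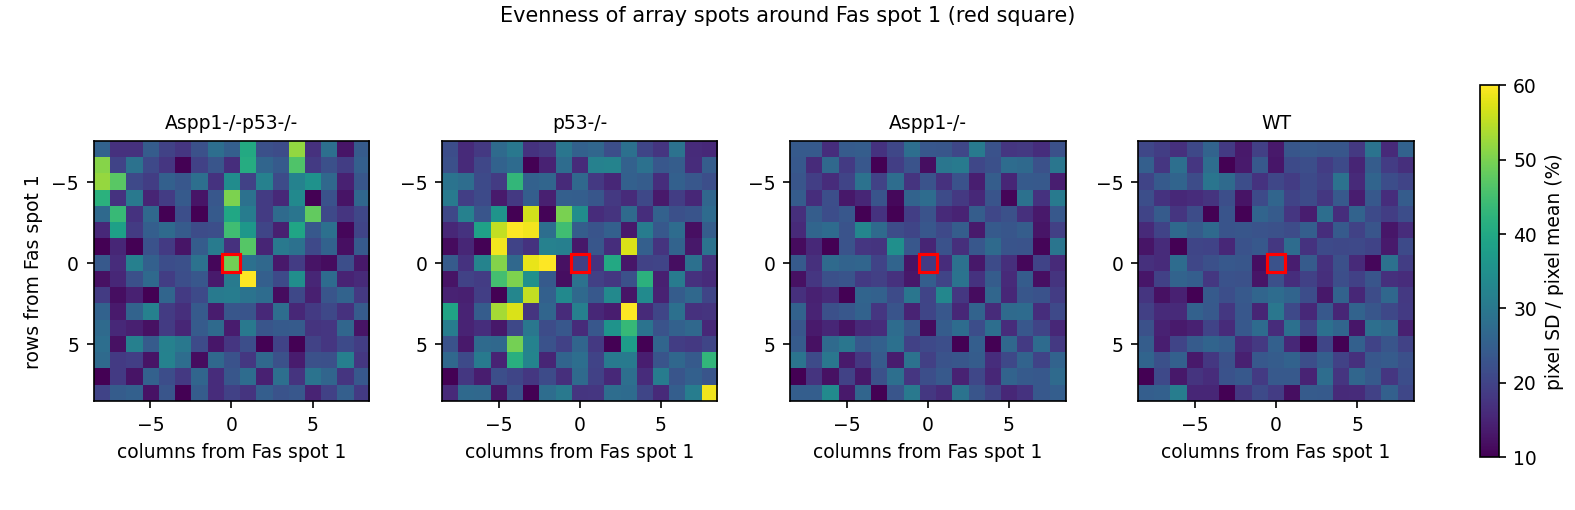
Standard deviation over a spot's pixels as a percentage of their mean (colour scale) for the array spots up to 8 rows and 8 columns from Fas spot 1, which is framed in red, on the Aspp1-/-p53-/-, p53-/-, Aspp1-/- and WT arrays. Uneven spots lie around and on Fas spot 1 on the Aspp1-/-p53-/- array and on both sides of it on the p53-/- array, where 15 of the 26 within 4 rows and 4 columns lie to its left, 9 to its right and 2 in its column; few are seen near it on the other arrays.

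Tnfrsf10b, the only mouse receptor of TRAIL with a death domain, was lower in both genotypes without p53. Its signal was 604 in Aspp1-/-p53-/-, 671 in p53-/- and 917 in Aspp1-/- cells, against 995 in WT cells. The log2 difference from WT was −0.63 in Aspp1-/-p53-/-, −0.59 in p53-/- and −0.19 in Aspp1-/- cells, each with a scanner error of 0.20. Aspp1-/-p53-/- cells stood at −0.04 against p53-/- and at −0.44 against Aspp1-/- cells. The 2 arrays without p53 were close to each other and both below the 2 arrays with it, and no difference reached 2-fold. Among 2120 genes of like signal, 2.83% were as low in Aspp1-/-p53-/- against WT and 1.70% in p53-/- against WT. Both shares use the same WT array, and the members were chosen with these contrasts known, so nothing is read from the shares. The probe has 1 spot, so this pattern has no repeat on the array, and its pixels were even, at 13.7% in Aspp1-/-p53-/-, 13.8% in p53-/-, 14.8% in Aspp1-/- and 17.1% in WT.

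The TNF receptors differed little between genotypes. Tnfrsf1a, which encodes TNF receptor 1 with its death domain, was read by a probe with 10 spots, and its mean signal was 8016 in Aspp1-/-p53-/-, 8714 in p53-/-, 8977 in Aspp1-/- and 8683 in WT cells. The spots of 1 array had a standard deviation of 0.05 for Aspp1-/-p53-/- and 0.03 for each of the others on the log2 scale, and the scaled level spanned 0.03 over the arrays. The genotypes were thus no farther apart than spots of 1 array. Its other probe gave 2732 in Aspp1-/-p53-/-, 3037 in p53-/-, 3191 in Aspp1-/- and 2991 in WT cells, a span of 0.07 after scaling. Tnfrsf1b, which encodes TNF receptor 2 and has no death domain, had a signal of 369 in Aspp1-/-p53-/-, 421 in p53-/-, 419 in Aspp1-/- and 399 in WT cells, a span of 0.08. Eda2r, a receptor for ectodysplasin A2, was not well above background with either of its probes on any array. Its signals lay between 4.33 and 6.67, and no difference is given.

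The members of the signalling complex inside the cell stayed within 0.26 on the log2 scale over the arrays. Fadd, the adaptor, had a signal of 653 in Aspp1-/-p53-/-, 694 in p53-/- and 676 in Aspp1-/- cells, against 593 in WT cells. Its log2 difference from WT was 0.23 in Aspp1-/-p53-/-, 0.20 in p53-/- and 0.12 in Aspp1-/- cells, with a scanner error of 0.20 each. Casp8, the initiator caspase, had 4792 in Aspp1-/-p53-/-, 5313 in p53-/- and 5115 in Aspp1-/- cells, against 4665 in WT cells, or differences of 0.13, 0.16 and 0.06 from WT in the same order. Both were highest in a genotype without p53 and lowest in WT after scaling, by amounts close to or under the scanner error.

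Cflar was read by 4 probes, which did not move together. The probe for NM_009805 had a signal of 1071 in Aspp1-/-p53-/-, 1239 in p53-/- and 1275 in Aspp1-/- cells, against 1158 in WT cells, and lay between −0.02 and 0.07 from WT. The NM_207653 probe that starts at base 1844 had 167 in Aspp1-/-p53-/-, 216 in p53-/- and 193 in Aspp1-/- cells, against 208 in WT cells. It was the lowest of the 4 in Aspp1-/-p53-/- against WT, at −0.23 with an error of 0.21, whereas a second probe for the same transcript, starting at base 2300, stood at −0.06. The remaining probe, for ENSMUST00000149874, stood at 0.08. The differences between probes of this gene were as large as those between genotypes.

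An additive fit over all 4 arrays, with the loss of Aspp1 and the loss of p53 as its terms, gave the only p-values. With limma and Benjamini-Hochberg adjustment over all 22969 genes or transcripts, 0 members and 0 genes had an adjusted p under 0.05 for either term, while 4.78% of genes for the loss of Aspp1 and 7.51% for the loss of p53 were under 0.05 unadjusted. Tnfrsf10b had an effect of −0.52 for the loss of p53 with a standard error of 0.08, an unadjusted p of 0.0196 and an adjusted p of 0.655 in limma. Fasl had an effect of −1.04 for the loss of Aspp1 with a standard error of 0.16, an unadjusted p of 0.0216 and an adjusted p of 0.730 in limma, though it was not well above background on 3 arrays. For Fas the effects were 0.39 for the loss of Aspp1 and 0.60 for the loss of p53, each with a standard error of 0.68, which came from its departure from additivity. The fit has 1 residual degree of freedom.

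That departure, the difference made by the loss of Aspp1 without p53 less the one made with p53, was 1.93 for Fas with a scanner error of 0.37. From spot 1 it was 2.98 and from spot 2 it was 0.87. Departures had a standard deviation of 0.32 over the 19152 genes or transcripts well above background on all 4 arrays. Of these, 26, Fas itself included, were at least as large as that of Fas from the mean of both spots. Fas was chosen with these values known, so nothing is read from that count. The other members well above background on all 4 arrays lay between −0.17 and 0.19 over their probes, each within its scanner error of 0.29 to 0.30. An additive pattern would have placed Fas in Aspp1-/-p53-/- cells at a log2 level of −4.01, and the measured level was −2.08.

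The 30 other genes of death receptor signalling showed 1 member past 2-fold. Tnfaip3, which encodes the ubiquitin-editing enzyme A20 that restrains NF-kB signalling from TNF receptors, had a signal of 4610 in Aspp1-/-p53-/-, 8680 in p53-/- and 13274 in Aspp1-/- cells, against 20138 in WT cells. It was lower by the rule in Aspp1-/-p53-/- against WT at −2.04, in p53-/- against WT at −1.24 and in Aspp1-/-p53-/- against Aspp1-/- at −1.37, and it stood at −0.80 in Aspp1-/-p53-/- against p53-/- and −0.67 in Aspp1-/- against WT. The scanner error was 0.20 in each. Tnfaip3 was thus lowest in Aspp1-/-p53-/-, next lowest in p53-/-, then in Aspp1-/-, and highest in WT cells. The median of the 30 genes was 0.03 in Aspp1-/-p53-/- against WT, 0.04 in p53-/- against WT and 0.03 in Aspp1-/- against WT, and 0 were past 2-fold higher in any of the 5 comparisons. The adaptor Tradd, the kinase Ripk1, the linear ubiquitin ligase subunits Rnf31, Rbck1 and Sharpin, and Bid, which links caspase-8 to mitochondria, were among the 29 that stayed under the rule wherever they were measured. Of these, Ptpn13 was not measured in Aspp1-/-p53-/- against p53-/- cells.

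Of 23 other receptors of the TNF receptor family, 18 were measured against WT, and 0 passed 2-fold in any comparison, with differences from WT between −0.51 and 0.31. Of 16 other ligands, 10 could be compared between Aspp1-/-p53-/- and WT cells. Tnfsf15, a ligand of death receptor 3, stood at −1.38 or less and Tnfsf11, the gene of RANKL, at −1.12 or less in Aspp1-/-p53-/- against WT. In p53-/- against WT cells Tnfsf11 stood at −1.20 or less and Tnfsf13b, the gene of BAFF, at 1.10 or more. All 4 of these values are bounds from dim probes: Tnfsf15 had a signal of 18.7 in Aspp1-/-p53-/- and 63.2 in WT cells, Tnfsf11 had 4.91 in Aspp1-/-p53-/-, 20.9 in p53-/- and 52.8 in WT cells, and Tnfsf13b had 36.9 in p53-/- and 14.4 in WT cells. In Aspp1-/-p53-/- against WT the scanner error was 0.46 for Tnfsf15 and 1.46 for Tnfsf11, the latter larger than its bound. In p53-/- against WT it was 0.42 for Tnfsf11 and 0.47 for Tnfsf13b.

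**Figure D5:**
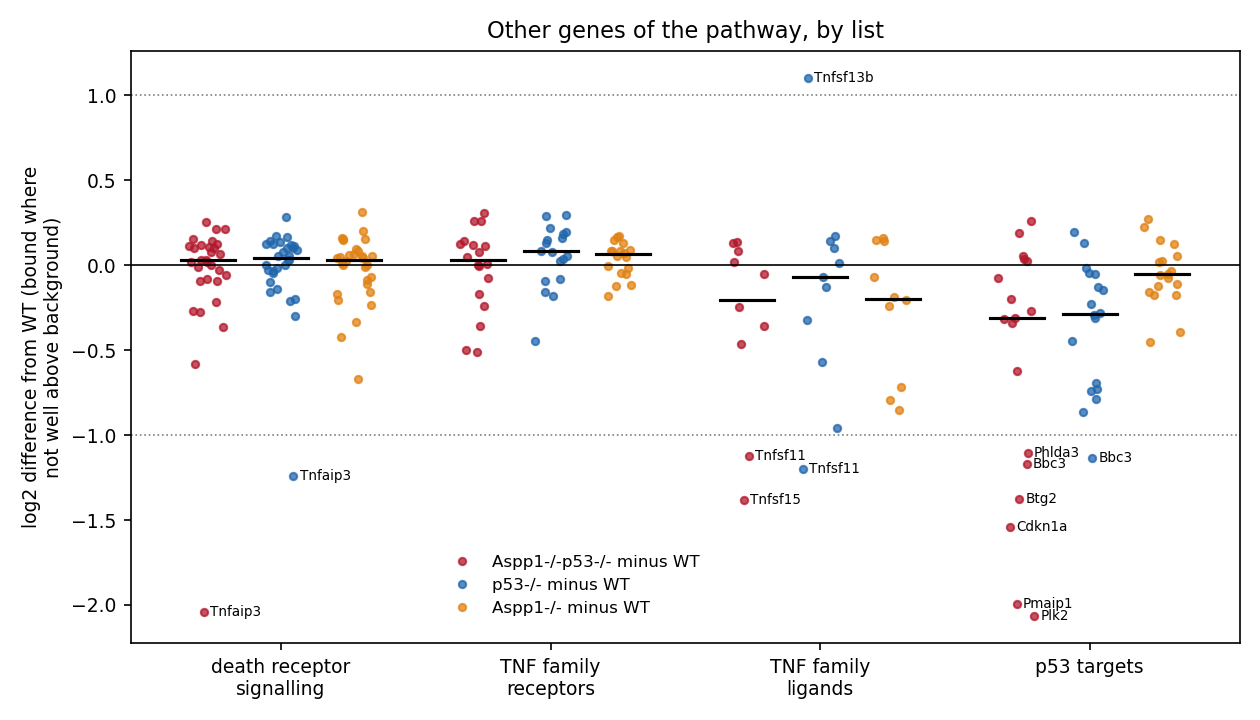
Log2 difference from WT (y axis, a bound where an array was not well above background) of the other genes of 4 lists (x axis) in Aspp1-/-p53-/-, p53-/- and Aspp1-/- cells; each point is a gene, black lines are the medians of measured differences and dotted lines mark 2-fold. Tnfaip3 lies apart from the death receptor signalling genes at −2.04 and −1.24, and the p53 target medians in Aspp1-/-p53-/- and p53-/- cells lie at −0.31 and −0.29.

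Fas and Tnfrsf10b are themselves p53 target genes, and 18 further targets were set beside them. In Aspp1-/-p53-/- against WT cells 6 of the 18 were lower by the rule and 0 higher, beside 2.43% of all genes lower. The median was −0.31, and 5 of the 18 lay above 0, among them Tnfrsf23 at 0.26 and Pidd1 at 0.19. Farthest from 0 were the polo-like kinase gene Plk2 at −2.07, the Noxa gene Pmaip1 at −2.00, the p21 gene Cdkn1a at −1.54 and the antiproliferative gene Btg2 at −1.38. In p53-/- against WT cells the median was −0.29 and Bbc3, the gene of Puma, passed at −1.13. There 1.52% of all genes were lower by the rule, and 2 of the 18 targets lay above 0. In Aspp1-/-p53-/- against p53-/- cells Plk2 at −1.33 and Pmaip1 at −1.21 passed, beside 3.29% of all genes lower, and 8 of the 18 lay above 0. In Aspp1-/-p53-/- against Aspp1-/- cells 5 were lower and 0 higher, beside 1.94% of all genes lower, and 4 of the 18 lay above 0. The 5 were Pmaip1 at −1.84, Plk2 at −1.61, Phlda3 at −1.38, Cdkn1a at −1.36 and Btg2 at −1.30. In Aspp1-/- against WT cells 0 passed and the median was −0.06. Tnfrsf10b stood at −0.63 in Aspp1-/-p53-/- and −0.59 in p53-/- cells, farther below 0 than the medians of the list. Fas in Aspp1-/-p53-/- cells lay above 0 with spot 1 and at −0.26 with spot 2. The members and the list were chosen with these contrasts known, so nothing is read from these positions. The part of p53 in them was not tested.

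Most granulocyte markers were lower on the Aspp1-/-p53-/- array than on the others. Of the 10, 8 were lower by 2-fold or more in Aspp1-/-p53-/- against WT cells, from −1.46 for S100a9 to −2.36 for Retnlg, whereas Cxcr2 stood at −0.22 and Ly6g at −0.05. All 10 markers were well above background on every array, and their signals, each divided by the array's 75th percentile, summed to 54.1 in Aspp1-/-p53-/-, 141 in p53-/- and 136 in Aspp1-/- cells, against 157 in WT cells. The sums of the other lists were 14.4 to 17.1 for T cell, 30.0 to 32.7 for natural killer cell, 16.3 to 21.6 for B cell, 31.5 to 36.5 for monocyte and macrophage and 10.3 to 12.8 for stromal and endothelial markers. A sum follows its brightest genes, such as Lck, Nkg7 and Kdr, and 3 dimmer markers of these lists were past 2-fold in Aspp1-/-p53-/- against WT cells, all lower. The T cell marker Cd28 had a signal of 254 in Aspp1-/-p53-/-, 673 in p53-/- and 1056 in Aspp1-/- cells, against 1522 in WT cells, a log2 difference of −2.49 for Aspp1-/-p53-/- against WT. The stromal and endothelial markers Cxcl12 and Vcam1 stood at −2.20 and −2.05 in the same comparison, with Cxcl12 at 36.5 in Aspp1-/-p53-/- and 178 in WT cells and Vcam1 at 39.9 in Aspp1-/-p53-/- and 176 in WT cells. The part of these cell types in the values of Fas, Tnfrsf10b and Tnfaip3 was not tested.

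The genes whose differences from WT lay nearest to those of Fas, among 13312 RefSeq genes well above background on all 4 arrays, were 4831440E17Rik at a Euclidean distance of 0.27, Synpo2 at 0.33, Rfx7 at 0.35, and 2410018L13Rik and Ptn at 0.47 each. The distance was taken over 3 log2 differences from 4 arrays. In Aspp1-/-p53-/- against WT these genes stood between 0.87 and 1.16, beside 0.998 for Fas. Since that value of Fas differs between its spots, the list describes the mean of both spots and no more.

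The promoters of Fas and Fasl are printed because a motif searched for was found in them. The 250 bases before the start of the gene were taken from RefSeq on GRCm38.p6, where 9 of the 10 members had an entry and Tnfrsf10b did not. The capitals mark the AP-1 motif TGANTCA in Fas and the p53 decamer in Fasl.
Fas, chr19:34290409-34290658, plus strand: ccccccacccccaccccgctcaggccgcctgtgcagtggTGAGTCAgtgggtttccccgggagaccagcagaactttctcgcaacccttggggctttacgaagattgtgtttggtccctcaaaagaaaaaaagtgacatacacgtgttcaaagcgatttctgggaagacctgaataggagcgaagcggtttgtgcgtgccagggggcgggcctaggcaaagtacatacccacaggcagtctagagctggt
Fasl, chr1:161788496-161788745, minus strand: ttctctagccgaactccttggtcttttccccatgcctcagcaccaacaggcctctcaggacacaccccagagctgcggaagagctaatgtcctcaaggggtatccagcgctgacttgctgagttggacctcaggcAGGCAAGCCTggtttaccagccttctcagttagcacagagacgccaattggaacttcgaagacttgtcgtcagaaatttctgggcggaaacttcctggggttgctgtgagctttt
The Fas match reads TGAGTCA and spans bases 211 to 205 before the start, and the Fasl match spans bases 115 to 106. On both strands, the AP-1 motif was in 6.87% of 27025 promoters of the same length, the p53 decamer in 7.18% and the NF-kB motif in 7.01%, and the NF-kB motif was in none of the 9 members. A match of letters is a description of these windows and says nothing of binding.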

How the data were processed

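Total RNA of LSK cells was labelled with Cy3 and hybridised to Agilent arrays of design 028005, per the labels' protocols and the file headers. The deposited intensity values came from Agilent Feature Extraction 10.7.3.1 with mm9 probe positions, per the file headers; the processed intensity is background-subtracted, with no scaling across arrays. Flags, as other values (well above background, saturated, outlier), and each spot's pixel standard deviation are deposited too. The authors' value table holds log2 values centred per probe. How the authors scaled these log2 values is not stated in the labels or headers.

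Control spots and outlier-flagged gene spots (172 in Aspp1-/-p53-/-, 171 in p53-/-, 121 in Aspp1-/-, 120 in WT) were left out. The log2 processed signal was set relative to each array's 75th percentile, and spots of a probe were averaged on that scale. Each gene was read by its brightest probe (by mean) of those that 1 array or more showed well above background, which gave 22969 genes or transcripts. Probes were named by RefSeq accession (26760) or by symbol (3818), and 25097 had no RefSeq gene. Where the dimmer array was not well above background the difference is a bound, taken against the higher of the dim value and the lowest signal well above background on that array. Medians of lists use measured differences. Errors are those of the scanner's error model and cover no spread between mice. The additive fit used limma 3.58.1 in R 4.3.3 (lmFit and eBayes). It was tried on simulated data that held additive changes only, so the trial does not cover departures from additivity such as that of Fas. Other steps used pandas 2.3.3 in Python 3.11.15. Motifs were searched with no mismatch on both strands.

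The members, the lists and the comparisons were chosen with earlier results of these data known. The text names all members, the members of each list past 2-fold (up to 4 a comparison, largest first), the 5 genes nearest to Fas and the targeted genes; other list genes are named as examples of those that stayed under the rule. Btg2 in Aspp1-/-p53-/- against Aspp1-/- cells, the fifth of 5 p53 targets past 2-fold there, and the cell type markers were named after their values were seen. The 8 alternatives tried were normexp background correction with an offset of 50, quantile and median scaling, the authors' value table, 2 filters on dim probes, the mean of a gene's probes and a 1.5-fold rule, and reading Fas from each spot or from spots averaged before the logarithm was added after the spots were seen.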

Additional observations from a re-analysis of the deposited data

Results flagged for a closer look

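For Fas, the difference made by the loss of Aspp1 had opposite signs with and without p53. It was 1.36 on the log2 scale in Aspp1-/-p53-/- against p53-/- cells and −0.57 in Aspp1-/- against WT cells. The difference made by the loss of p53 was likewise 1.57 in Aspp1-/-p53-/- against Aspp1-/- cells and −0.36 in p53-/- against WT cells. With 1 array per genotype the opposite signs were not tested. The positive values contain Fas spot 1 of the Aspp1-/-p53-/- array. From spot 2 alone they were 0.34 with a scanner error of 0.30 and 0.27 with an error of 0.27. Both were under 2-fold and close in size to their errors, so spot 2 does not settle their sign.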

How the results depend on the processing

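Of the members' counts past 2-fold, 44 of the recomputed values stayed within 1.5 times the reported count and 11 did not. In Aspp1-/-p53-/- against WT cells the count of 0 became 2 with the authors' value table (Fas at 1.01 and Fasl), 1 with no filter (Fasl, as measured), 2 with a 1.5-fold rule (Fas and Tnfrsf10b), 1 with Fas spot 1 and 1 with the Fas spots averaged before the logarithm. The 1.5-fold rule gave 1 in p53-/- against WT (Tnfrsf10b) and 1 in Aspp1-/- against WT (Fasl, as a bound). In Aspp1-/-p53-/- against p53-/- cells the count of 1 became 0 with normexp, 2 with no filter (Fas and Fasl) and 0 with Fas spot 2, and in Aspp1-/-p53-/- against Aspp1-/- cells 0 with Fas spot 2. With normexp, which adds an offset and so draws dim probes together, the Fas difference was 0.72 in Aspp1-/-p53-/- against WT, 0.93 against p53-/- and 1.05 against Aspp1-/-, and its departure from additivity was 1.26. Spot 1 gave 2.26, 2.37 and 2.86 in the same order with a departure of 2.98, and spot 2 gave −0.26, 0.34 and 0.27 with a departure of 0.87. Averaging the 2 signals before the logarithm gave 1.47, 1.81 and 2.03 with a departure of 2.38. These 3 readings were chosen after seeing the data. The other 38 recomputed Fas differences and 6 departures moved by less than the scanner error, and the additive fit called 0 members in all 7 alternatives. No paired analysis was possible because each genotype has 1 array. For the same reason no array could be left out of a comparison of 2 arrays, and leaving 1 out of the additive fit leaves no residual degree of freedom.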
